A study of Homo sapiens with 6 samples.

Results

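The NRF2 oxidative stress response genes NFE2L2, KEAP1, NQO1, HMOX1, GCLC, GCLM, TXNRD1, SRXN1, SLC7A11 and TXN were followed in HEK293T cells after treatment with valproic acid (VPA), which inhibits histone deacetylases. They were taken by symbol from a fixed list of 10 genes. All 10 are among the 47470 genes of the count files and all 10 passed the filter on low counts, with 15298 genes in all. HEK293T is an established line derived from human embryonic kidney and expresses the large T antigen of SV40. Untreated cells, labelled wild type and kept in medium without VPA, were compared with cells of the same line given 1 mM VPA for 1 day, with 3 libraries per group and 6 in all. The labels do not say whether the libraries came from separate cultures, so the p-values measure the spread between these libraries, which may be technical. mRNA libraries were made with a strand-specific protocol, and the deposited values are raw read counts per gene. Values below are normalized counts, that is counts scaled by edgeR's TMM factors to the mean library, and fold changes are VPA-treated over untreated.

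NRF2 is the transcription factor encoded by NFE2L2. In unstressed cells KEAP1 binds it and hands it to a CUL3 ubiquitin ligase, so that its amount is set largely by protein breakdown and only partly by its mRNA. Oxidants and electrophiles modify KEAP1, and the NRF2 that escapes pairs with small MAF proteins at antioxidant response elements near genes for glutathione synthesis, thioredoxin reduction, NADPH supply and heme breakdown.

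The core of the antioxidant response element, TGACNNNGC, was searched on both strands in the promoter windows of RefSeq (GRCh38.p14), which run from 250 bases before to 50 bases after the start of a gene. Windows were matched by symbol for 8 of the 10 genes, without HMOX1 and SLC7A11. The letters were found in 2 of the 8 windows, those of GCLM and TXNRD1, and in 13.6% of all 27326 windows. A match is a description of the sequence and not a measured site of binding. Sequence farther from the start was not searched, so a missing match does not mean that a gene lacks the element. The windows of GCLM and GCLC, which encode the subunits of 1 enzyme, and of TXNRD1 and SRXN1 of the thioredoxin branch, are shown. With TMM scaling TXNRD1 was lower and SRXN1 higher after VPA, while scaled by ribosomal protein genes both were higher. The sequences run from 250 bases before to 20 bases after the start, with matches in capitals.
GCLM (chr1:93909411-93909680, minus strand): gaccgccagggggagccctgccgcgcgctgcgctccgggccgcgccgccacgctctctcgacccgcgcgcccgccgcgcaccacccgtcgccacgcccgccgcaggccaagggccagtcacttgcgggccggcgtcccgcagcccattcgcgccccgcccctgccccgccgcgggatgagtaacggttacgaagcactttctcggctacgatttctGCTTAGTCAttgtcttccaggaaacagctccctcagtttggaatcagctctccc
GCLC (chr6:53545082-53545351, minus strand): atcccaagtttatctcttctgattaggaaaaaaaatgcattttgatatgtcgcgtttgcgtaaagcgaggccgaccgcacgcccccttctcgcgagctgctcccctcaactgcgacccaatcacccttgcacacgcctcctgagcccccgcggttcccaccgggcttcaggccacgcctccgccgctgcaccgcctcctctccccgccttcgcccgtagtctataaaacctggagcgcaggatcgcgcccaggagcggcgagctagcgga
TXNRD1 (chr12:104215529-104215798, plus strand): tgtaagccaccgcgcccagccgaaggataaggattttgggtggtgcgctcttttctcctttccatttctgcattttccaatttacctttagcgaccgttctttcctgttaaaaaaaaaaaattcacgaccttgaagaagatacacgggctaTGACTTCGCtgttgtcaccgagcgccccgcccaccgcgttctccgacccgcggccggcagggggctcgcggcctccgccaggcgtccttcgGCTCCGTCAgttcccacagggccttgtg
SRXN1 (chr20:653181-653450, minus strand): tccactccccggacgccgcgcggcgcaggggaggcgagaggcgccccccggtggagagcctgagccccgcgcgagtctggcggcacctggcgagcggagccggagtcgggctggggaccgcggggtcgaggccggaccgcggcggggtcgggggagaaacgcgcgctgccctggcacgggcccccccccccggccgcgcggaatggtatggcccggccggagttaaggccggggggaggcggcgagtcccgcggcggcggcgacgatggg
In GCLM the match reads TGACTAAGC on the opposite strand, from base -34 to base -26 before the start. In TXNRD1 a match on the strand of the gene, TGACTTCGC, spans bases -99 to -91, and another on the opposite strand, TGACGGAGC, spans base -8 to base 1.

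Most of the 10 genes were somewhat lower after VPA with TMM scaling. In bulk RNA, fewer cells of a kind and less RNA per cell cannot be told apart. By edgeR's quasi-likelihood test 7 were lower and 1 was higher at a p under 0.05 after Benjamini-Hochberg adjustment over all tested genes, and 2 (NQO1 and GCLC) did not pass. Of all tested genes 62.9% passed the same threshold, 30.0% as lower and 32.9% as higher. No member reached a log2 fold change of 1 in size, which the study also asked of its differentially expressed genes, while 12.5% of all tested genes passed both thresholds (12.0% higher and 0.503% lower). DESeq2 likewise placed 0 of the 10 past both. The median log2 fold change of the 10 genes was -0.22, and that of all tested genes was 0.0058. In 6 genes every VPA-treated library lay below every untreated library, in 1 gene (SRXN1) every one lay above, and in 3 genes the groups overlapped. Such separation was found in 31.0% of all tested genes in the lower and 34.8% in the higher direction.

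**Figure D1:**
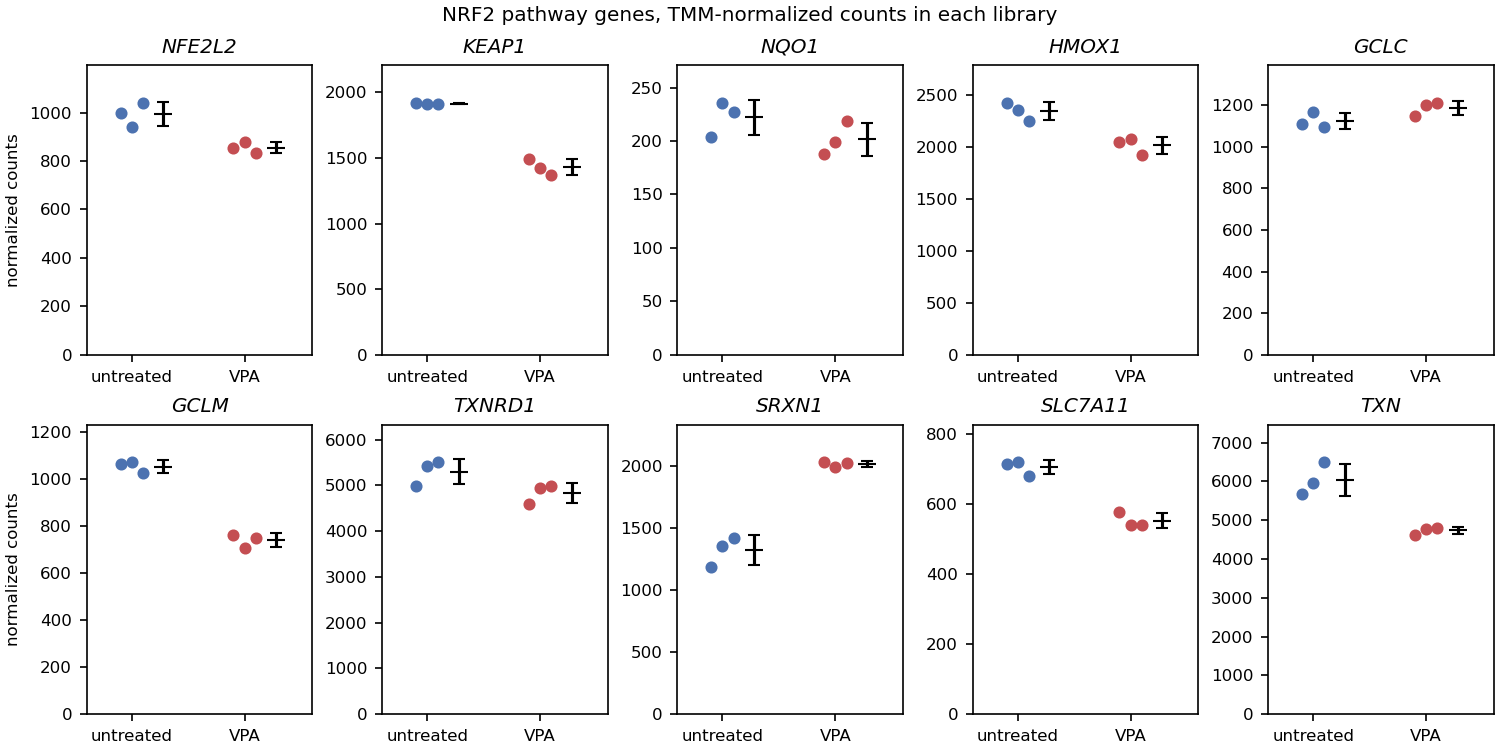
TMM-normalized counts (y axes, from 0) of the 10 genes in the 3 untreated (blue) and 3 VPA-treated (red) libraries, with mean and SD in black. SRXN1 is the gene in which the treated libraries sit highest against the untreated ones, at 1994 to 2032 against 1186 to 1418, and KEAP1 and GCLM are separated in the other direction.

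How these small changes read depends on how the libraries are scaled. With TMM, which assumes that most genes do not change, the median of all tested genes is close to 0. Scaling by library totals moved that median to 0.14, and scaling by the ribosomal protein genes moved it to 0.28. The share of all tested genes called higher and lower was then 43.9% and 15.5% with library totals, and 60.5% and 5.58% with ribosomal protein genes. Of the 10 genes 2 were then called higher and 4 lower, and 3 higher and 2 lower. KEAP1, GCLM and SRXN1 kept their direction and passed the test under all 4 scalings tried. Under ribosomal protein scaling NFE2L2, HMOX1, NQO1 and TXNRD1 turned to values above 0, and TXNRD1 also did with library totals. Relative to the median of all genes the order did not move: 8 of the 10 genes lay below it and GCLC and SRXN1 above it under each scaling, which is built in, since a scaling shifts all genes alike. The 10 genes together took 0.104%, 0.107% and 0.110% of the counts on genes without VPA, against 0.102%, 0.104% and 0.104% with it, and these shares overlap.

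**Figure D2:**
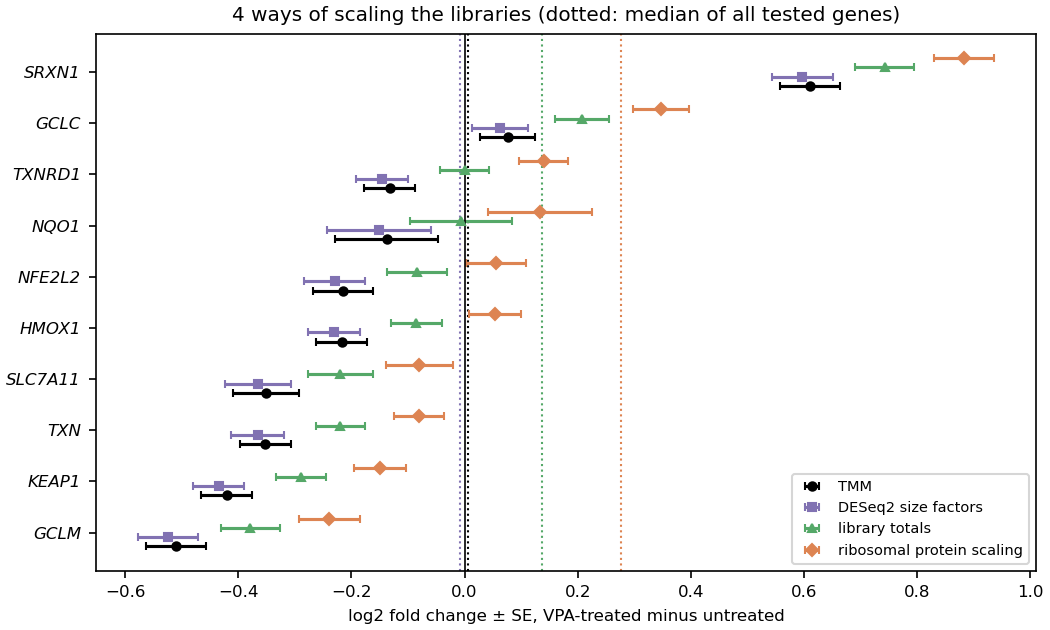
Log2 fold change of each gene with its standard error (x axis, VPA-treated minus untreated) under 4 scalings of the libraries. Dotted lines give the median of all tested genes under each scaling, 0.0058 with TMM and 0.28 with ribosomal protein genes. SRXN1 stays above and KEAP1 and GCLM stay below 0 in all 4.

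The factor and its inhibitor were both lower. NFE2L2, on chromosome 2 from 177230303 to 177264727 (GRCh38.p14), had 997, 941 and 1039 normalized counts without VPA, against 856, 878 and 831 with it. All 3 treated values lie below the untreated ones. NFE2L2 fell by 13.9%, or -0.22 on the log2 scale (standard error 0.053, adjusted p = 0.00134, edgeR's quasi-likelihood test). Scaled by library totals its adjusted p was 0.182 (edgeR), and scaled by ribosomal protein genes its log2 fold change was 0.055. KEAP1, on chromosome 19 from 10486125 to 10503356, had 1917, 1911 and 1907 normalized counts across the untreated libraries, against 1494, 1421 and 1371 after VPA. The untreated libraries differed very little, with an SD of 5.03, and the treated libraries lay well below them. KEAP1 fell by 25.3%, or -0.42 on the log2 scale (standard error 0.045, adjusted p = 5.34e-08, edgeR). Library totals gave -0.29, and ribosomal protein scaling gave -0.15 (adjusted p = 0.00676, edgeR).

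The count of NFE2L2 per count of KEAP1 was higher in each treated library. This ratio is taken within a library and does not depend on scaling. It was 0.520, 0.492 and 0.545 without VPA, against 0.573, 0.618 and 0.606 with it. The groups did not overlap, and the difference on the log2 scale was 0.21. Among single genes 31.0% separated as lower and 34.8% as higher with TMM, and how often ratios of other genes do so was not counted. The exact permutation test (two-sided, n = 3 each) gave p = 0.1, the smallest that 3 libraries against 3 allow, and 0.1 also after adjustment over the 3 ratios tested.

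Glutathione is built from cystine, imported by the exchanger of which SLC7A11 is the light chain, and its rate-limiting step is glutamate-cysteine ligase, made of a catalytic subunit (GCLC) and a modifier subunit (GCLM). GCLM was lower after VPA, and GCLC did not pass the test. GCLM, on chromosome 1 from 93885199 to 93909430, had 1063, 1070 and 1022 normalized counts across the untreated libraries, against 762, 706 and 748 after VPA. It fell by 29.8%, or -0.51 on the log2 scale (standard error 0.052, adjusted p = 2.66e-08, edgeR), the largest decrease among the 10 genes. With ribosomal protein scaling it was still -0.24 (adjusted p = 6.66e-04, edgeR). GCLC, on chromosome 6 from 53497341 to 53545101, had 1110, 1169 and 1094 normalized counts across the untreated libraries, against 1146, 1199 and 1210 after VPA. Here the groups overlapped, and the log2 fold change of 0.076 had a 95% confidence interval from -0.025 to 0.18 (adjusted p = 0.182, edgeR). Scaled by library totals (0.21) or by ribosomal protein genes (0.35), GCLC passed the test as higher.

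The ratio of GCLM to GCLC counts does not depend on scaling, though it cannot tell which gene moved. It was 0.958, 0.915 and 0.935 without VPA, against 0.665, 0.589 and 0.618 with it. Every treated library lay below every untreated library, with a log2 difference of -0.59 (exact permutation test, two-sided, n = 3 each, p = 0.1, the smallest possible). When any 1 library was left out, the log2 difference stayed between -0.63 and -0.55.

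**Figure D3:**
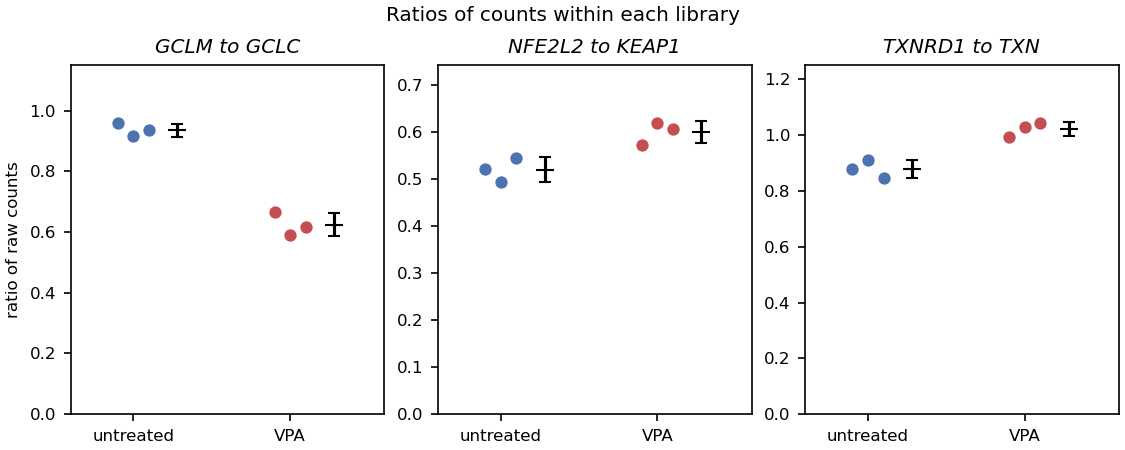
Ratio of raw counts within each library (y axes, from 0) for GCLM to GCLC, NFE2L2 to KEAP1 and TXNRD1 to TXN, with untreated libraries in blue, VPA-treated libraries in red, and mean and SD in black. GCLM to GCLC averages 0.936 without and 0.624 with VPA, and the other ratios are higher in the treated libraries, with no overlap between groups in any of the 3. How often ratios of other genes separate the groups was not counted.

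SLC7A11, on chromosome 4 from 138164097 to 138242349, had 714, 718 and 680 normalized counts across the untreated libraries, against 577, 540 and 539 after VPA. The groups were apart, and SLC7A11 fell by 21.6%, or -0.35 on the log2 scale (standard error 0.058, adjusted p = 1.77e-05, edgeR). With ribosomal protein scaling the value was -0.080 (adjusted p = 0.239, edgeR). SLC3A2, which encodes the heavy chain of the same exchanger, was also lower after VPA, at 2778 ± 84.7 normalized counts against 3471 ± 25.4 (SD, n = 3 each). It was chosen after its values were seen.

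The thioredoxin branch held both the largest increase and some of the most abundant mRNAs. SRXN1 encodes sulfiredoxin, which restores overoxidized peroxiredoxins. The gene lies on chromosome 20 from 646615 to 653200, and had 1186, 1360 and 1418 normalized counts across the untreated libraries, against 2032, 1994 and 2027 after VPA. Every treated library was far above the untreated ones. SRXN1 was 1.53-fold higher, or 0.61 on the log2 scale (standard error 0.054, adjusted p = 2.37e-09, edgeR), and leaving out each library gave 0.53 to 0.66. Library totals gave 0.74 and ribosomal protein scaling 0.88.

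TXN encodes thioredoxin, a small protein that reduces disulfides. The gene lies on chromosome 9 from 110243810 to 110256507, and had 5682, 5954 and 6492 normalized counts across the untreated libraries, against 4627, 4785 and 4791 after VPA. TXN fell by 21.7%, or -0.35 on the log2 scale (standard error 0.045, adjusted p = 7.64e-07, edgeR). With ribosomal protein scaling it was -0.080 (adjusted p = 0.111, edgeR). TXNRD1 encodes the cytosolic reductase that recharges thioredoxin. The gene lies on chromosome 12 from 104215779 to 104350307, and had 4983, 5421 and 5506 normalized counts across the untreated libraries, against 4593, 4933 and 4993 after VPA. The highest treated library was slightly above the lowest untreated library, so the groups overlapped. TXNRD1 fell by 8.74%, or -0.13 on the log2 scale (standard error 0.045, adjusted p = 0.0148, edgeR). The adjusted p (edgeR) was 0.059 without untreated replicate 2, 0.061 without untreated replicate 3 and 0.078 without VPA-treated replicate 1, and the log2 fold change was 4.7e-06 when scaled by library totals and 0.14 when scaled by ribosomal protein genes (adjusted p = 0.00849, edgeR).

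TXNRD1 counts per TXN count were 0.877, 0.911 and 0.848 without VPA, against 0.993, 1.03 and 1.04 with it. The groups did not overlap, with a log2 difference of 0.22 (exact permutation test, two-sided, n = 3 each, p = 0.1, the smallest possible).

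HMOX1 and NQO1 are the best-known reporters of the pathway, and neither was higher with TMM. HMOX1 encodes heme oxygenase 1, which opens heme into biliverdin, iron and carbon monoxide. The gene lies on chromosome 22 from 35381096 to 35394207, and had 2426, 2357 and 2255 normalized counts across the untreated libraries, against 2047, 2084 and 1925 after VPA. All treated libraries were below all untreated ones. HMOX1 fell by 14.0%, or -0.22 on the log2 scale (standard error 0.045, adjusted p = 2.63e-04, edgeR). Scaled by library totals the adjusted p was 0.113 (edgeR), and scaled by ribosomal protein genes the log2 fold change was 0.054. NQO1 encodes a quinone reductase that uses NADPH or NADH. The gene lies on chromosome 16 from 69709401 to 69726560, and had 204, 236 and 227 normalized counts across the untreated libraries, against 188, 199 and 218 after VPA. These values overlap, and the log2 fold change of -0.14 had a 95% confidence interval from -0.33 to 0.052 (adjusted p = 0.196, edgeR). NQO1 had the fewest counts of the 10 genes, 1269 over the 6 libraries, and the widest interval, which does not reach an increase as large as that of SRXN1 on the TMM scale.

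**Figure D4:**
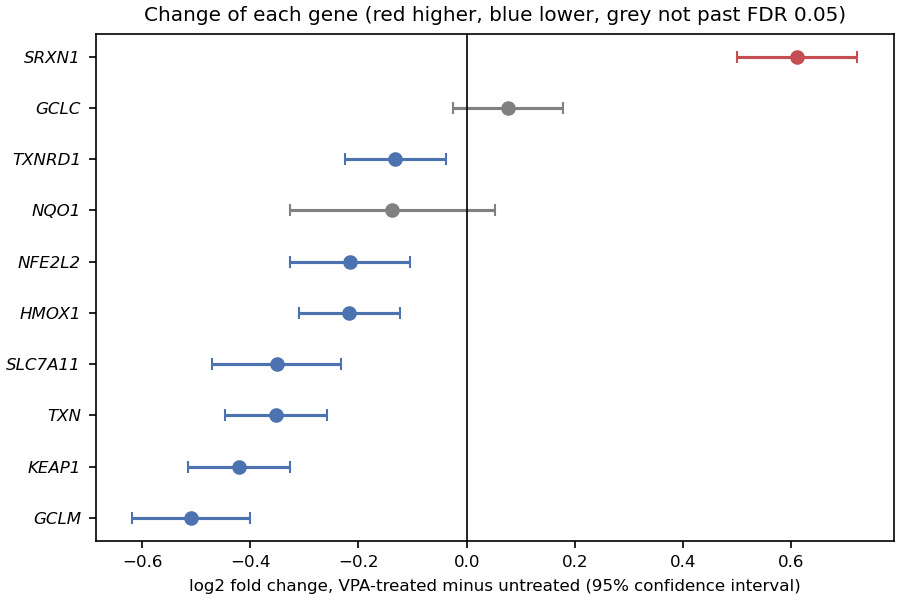
Log2 fold change with its 95% confidence interval (x axis, VPA-treated minus untreated, edgeR with TMM) for each of the 10 genes. SRXN1 stands alone on the right at 0.61, GCLC and NQO1 cross 0, and the other 7 lie to the left, down to GCLM at -0.51.

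Levels were compared between genes after division by the length of the MANE Select transcript, in normalized counts per kilobase. Such a length takes 1 isoform per gene, so the order is approximate. In untreated cells TXN stood highest, at 8199 ± 559 (SD, n = 3), followed by HMOX1 at 1510 ± 55.3, TXNRD1 at 1374 ± 72.7, KEAP1 at 745 ± 1.96, SRXN1 at 523 ± 47.7, NFE2L2 at 406 ± 20.1, GCLC at 297 ± 10.5, GCLM at 215 ± 5.25, NQO1 at 88.1 ± 6.46 and SLC7A11 at 73.0 ± 2.16. The libraries of neighbours in this order did not overlap. TXN was at the 99.0th percentile of 12805 tested genes with a length, HMOX1 at the 92.4th and NQO1 at the 36.5th, so that the level of the heme oxygenase mRNA was high in these cells before treatment and that of the quinone reductase was not. In VPA-treated cells the order was the same except that SRXN1, at 798 ± 8.09 per kilobase (SD, n = 3), stood above KEAP1 at 557 ± 24.1, and HMOX1 and TXNRD1 overlapped, at 1299 ± 53.3 and 1254 ± 55.9.

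Other genes of the pathway were described from 9 further lists. Of 148 redox genes outside the 10, in 8 of these lists, 120 were tested, and 44 were higher and 45 lower (median log2 fold change 0.0016). Scaled by ribosomal protein genes, 72 were higher and 9 lower. The counts of each list below stand beside 32.9% higher and 30.0% lower among all tested genes with TMM, and 60.5% and 5.58% scaled by ribosomal protein genes. Of the 148, 14 are listed at 0 in every library, among them all 7 that lie on chromosome X (for example PIR and PRDX4), and nothing is read from their values.

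Among regulators and partners of NRF2, 11 of 18 tested genes were lower and 2 higher, against 30.0% and 32.9% of all tested genes, with a median log2 fold change of -0.18. With ribosomal protein scaling 4 were lower and 7 higher, against 5.58% and 60.5% of all genes, and the median was 0.095. SQSTM1, an autophagy receptor that can bind KEAP1, fell by 24.7%, from 3030 ± 63.1 to 2282 ± 97.5 normalized counts (SD, n = 3 each). CREBBP, an acetyltransferase that serves NRF2 as a coactivator, fell by 30.3%, from 4308 ± 147 to 3004 ± 95.8. NFE2L3, an NRF2 relative, was 1.63-fold higher, rising from 573 ± 52.1 to 936 ± 56.9. BACH2, a repressor related to BACH1, rose from 236 ± 16.1 to 269 ± 5.59 (adjusted p = 0.0472, edgeR), a call lost with DESeq2 size factors.

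Most genes on a list of other NRF2 targets were higher after VPA. The list is not complete and shares genes with other lists, so its counts depend on which genes were placed in it. Of 24 tested, 16 were higher and 1 lower with TMM, against 32.9% and 30.0% of all tested genes, with a median log2 fold change of 0.20. Scaled by ribosomal protein genes, edgeR called 19 higher and 0 lower, against 60.5% and 5.58% of all genes. There 0 were lower at an unadjusted p under 0.05, and the median was 0.48. Past both thresholds with TMM 5 were higher, against 12.0% of all genes, and 4 of these had low counts. The aldo-keto reductases AKR1C1, AKR1C2 and AKR1C3 had 9, 10 and 4 counts over the 3 untreated libraries and 81, 65 and 51 over the 3 VPA-treated libraries. All 3 were past both thresholds. These paralogs are close in sequence and reads that fit several places were not counted, so their counts are uncertain. OSGIN1, a gene induced by oxidative stress, had 26 and 123 counts over 3 libraries each, and CBR3, a carbonyl reductase, went from 50.8 ± 7.01 up to 107 ± 4.70 normalized counts (SD, n = 3 each). PANX2, a pannexin channel gene, rose 1.51-fold. GSTP1, the most counted glutathione transferase, fell by 10.4% with TMM, while with ribosomal protein scaling it was higher by 0.11 on the log2 scale (adjusted p = 0.0202, edgeR).

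**Figure D5:**
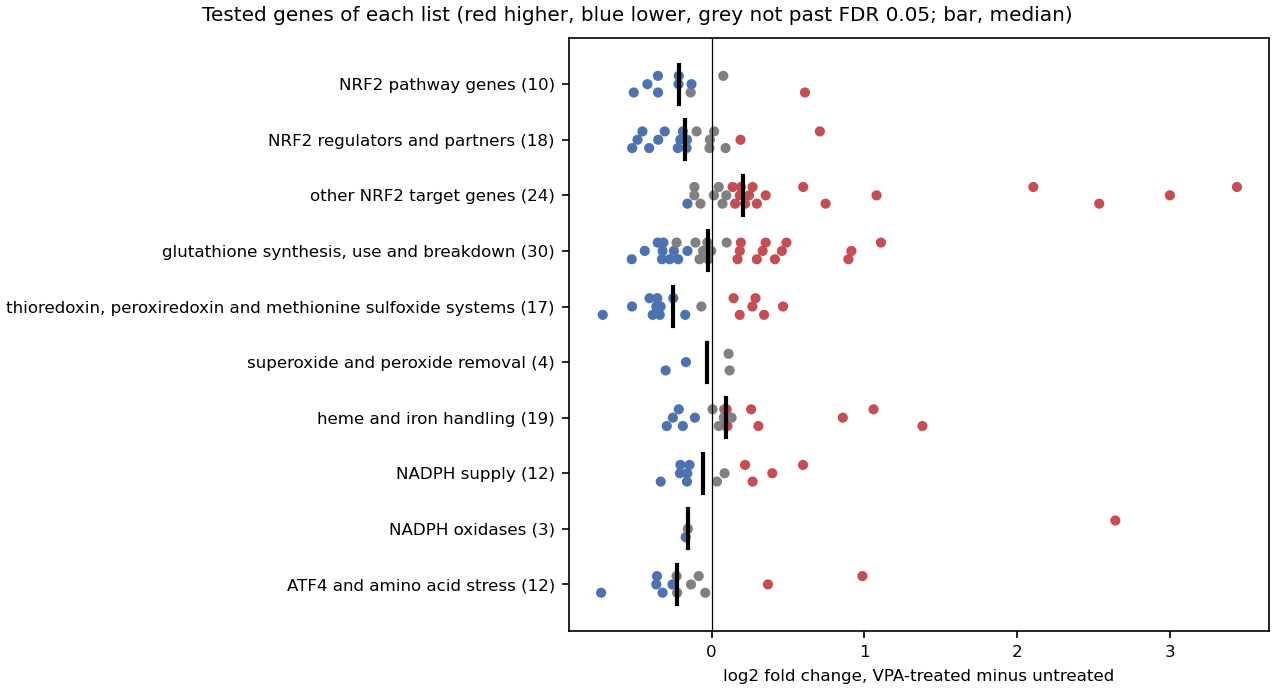
Log2 fold change (x axis, VPA-treated minus untreated, edgeR with TMM) of each tested gene in the 10 NRF2 pathway genes and the 9 further lists, with the number tested in brackets and the median as a bar. The points of the other NRF2 target genes reach from -0.16 to 3.44, and 16 of the 24 are red.

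Of 30 tested glutathione genes 12 were higher and 10 lower, near the shares among all tested genes (32.9% and 30.0%), with a median log2 fold change of -0.025. Scaled by ribosomal protein genes, 20 were higher and 2 lower, with a median of 0.25. GLRX, glutaredoxin, was 1.86-fold higher and GSTM4 1.88-fold higher, and GGT1, which cleaves extracellular glutathione, went from 80.4 ± 4.18 up to 173 ± 10.2 normalized counts (SD, n = 3 each). GGT1 and the GSTM genes have close relatives in the genome and are uncertain for that reason. GPX1, glutathione peroxidase 1, fell by 30.4%, and GSTO1 fell by 26.2%.

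In the thioredoxin, peroxiredoxin and methionine sulfoxide systems 10 of 17 tested genes were lower and 6 higher, against 30.0% and 32.9% of all tested genes, with a median log2 fold change of -0.25. With ribosomal protein scaling 3 were lower and 7 higher, and the median was 0.020. Sulfiredoxin repairs some of the peroxiredoxins but not all, so the peroxiredoxins named here are not all its substrates. PRDX3 of the mitochondrion fell by 23.5%, from 6257 ± 289 to 4787 ± 16.8 normalized counts (SD, n = 3 each), while PRDX5 rose 1.22-fold and MSRB3, a methionine sulfoxide reductase, 1.38-fold. SESN1, a sestrin, fell by 30.3%.

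Of 19 tested genes for heme and iron handling, 7 were higher and 5 lower, against 32.9% and 30.0% of all tested genes, with a median log2 fold change of 0.094. Scaled by ribosomal protein genes, edgeR called 15 higher and 0 lower (0 lower at an unadjusted p under 0.05). BLVRB, biliverdin reductase B, was 2.08-fold higher, rising from 328 ± 26.8 to 683 ± 64.5 normalized counts, and SLC40A1, the iron exporter ferroportin, went from 52.5 ± 3.35 to 137 ± 15.2 (SD, n = 3 each). The constitutive heme oxygenase HMOX2 fell by 18.4% with TMM, a call lost with ribosomal protein scaling (log2 fold change -0.023, adjusted p = 0.699, edgeR).

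Of 12 tested genes for NADPH supply, 4 were higher and 6 lower, against 32.9% and 30.0% of all tested genes. Scaled by ribosomal protein genes, edgeR called 7 higher and 0 lower (0 lower at an unadjusted p under 0.05). The isocitrate dehydrogenases IDH1 and IDH2 rose 1.51-fold and 1.32-fold, TKT of the pentose phosphate pathway fell by 20.6%, and NNT of the mitochondrion fell by 13.4%. Neither call held with ribosomal protein scaling, where their log2 fold changes were -0.062 and 0.063. Of the superoxide and peroxide enzymes SOD2 fell by 18.8% with TMM, a call lost with ribosomal protein scaling (log2 fold change -0.030, adjusted p = 0.542, edgeR). SOD1 was at 8134 ± 535 normalized counts against 9141 ± 875 (SD, n = 3 each), with overlapping groups and with a value of 0.10 under ribosomal protein scaling, and the other 2 of 4 tested did not pass. Of the NADPH oxidase genes 3 of 12 were tested. NOX5 had 5 counts without VPA and 36 with it, over 3 libraries each, and RAC1 fell by 11.1% with TMM, while with ribosomal protein scaling it was higher by 0.10 on the log2 scale (adjusted p = 0.0255, edgeR).

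SLC7A11 is also known as a target of ATF4, the factor of the amino acid stress response. In a list of 12 such genes 5 were lower and 2 higher, against 30.0% and 32.9% of all tested genes, with a median log2 fold change of -0.23. With ribosomal protein scaling edgeR called 0 lower (2 at an unadjusted p under 0.05) and 4 higher, and the median was 0.042. PSAT1 of serine synthesis fell by 22.0%, and SESN2 fell by 22.2%. Both calls were lost with ribosomal protein scaling (log2 fold changes -0.087 and -0.092, adjusted p = 0.056 and 0.080, edgeR). VLDLR, a lipoprotein receptor, was 1.98-fold higher and TRIB3, a pseudokinase, 1.29-fold.

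Totals on genes lay between 18622267 and 18828495, so that depth differed little. Libraries of a group differed by more than sampling noise (chi-square per gene 1.62 to 4.80), and none was a copy of another. Of 8 markers chosen for HEK293 and embryonic kidney, 7 were tested, and their summed level was 14566 to 14986 normalized counts in untreated and 12354 to 12775 in treated libraries, most of it VIM. PAX8 was near 0. The 4 liver markers summed to at most 3.15 normalized counts in any library. The 4 blood markers summed to 19.7 to 35.7 without VPA and 35.4 to 46.0 with it, and none was called. Keratinocyte and fibroblast markers moved with treatment. The 4 keratinocyte markers summed to 0 to 2.10 without VPA and 18.2 to 22.0 with it, and DSG3 was called higher, while KRT5 and KRT14 were at 0 in every library. Of the fibroblast markers 3 of 4 (COL1A1, DCN and LUM) were higher, with sums of 430 to 482 in untreated and 1491 to 1661 in treated libraries and COL1A2 at 0 in the untreated ones. Their part in the changes above was not tested. NQO1 overlaps NQO1-AS1 (not analysed here), GCLC overlaps GCLC-AS1 and SLC7A11 overlaps SLC7A11-AS1 in their exons, and 225 exonic bases of SRXN1 lie in the span of LOC107985423, which had 242 counts in all. GCLC-AS1 and SLC7A11-AS1 are listed at 0. TXN has 7 named pseudogenes in GENCODE 44, and reads shared with them were set aside.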

How the data were processed

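RNA-seq of 3 untreated and 3 VPA-treated HEK293T libraries was analysed. The authors cleaned the reads (SOAPnuke), mapped them with STAR to hg38 and deposited raw counts per gene from htseq-count, without normalization. The submitters' processing notes name STAR 2.7.10b, HTSeq 2.0.1 and DESeq2. The annotation and strand setting are not given in the sources used here. The 5 summary lines were left out. Of the reads listed, 6.80% to 7.69% lay off any gene, 1.97% to 2.10% were ambiguous and 2.81% to 2.92% had several places.

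The test was edgeR 4.0.16 (R 4.3.3) on the counts of all genes (TMM, filterByExpr with a minimum count of 10, robust quasi-likelihood fit, prior count 0.125, Benjamini-Hochberg adjustment over 15298 genes). A gene was called where its adjusted p was under 0.05. Normalized counts are scaled to the mean library. Standard errors were taken from the fold change and its F statistic. The biological coefficient of variation was 3.83%. The edgeR and DESeq2 fits were checked on simulated counts with few genes changed, as many up as down. Of 50 genes each at log2 fold changes of -0.5 and 0.5, edgeR called 42 and 47 and DESeq2 34 and 41. A shift of most genes was not simulated, nor was the exact permutation test. Within-library ratios were tested by exact permutation.

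The members and lists were chosen with earlier results of these data known. Named from the lists were genes past an adjusted p of 0.05 and a log2 fold change of 1, and the 2 of smallest p in each direction. Some items the rule names are not reported here. Alternatives were DESeq2 1.42.0, other scalings and filters, glmTreat, a replicate block and each library left out. Coordinates are from RefSeq (GRCh38.p14) by symbol, lengths from GENCODE 44.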

Additional observations from a re-analysis of the deposited data

How the results depend on the processing

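Over the 10 genes and 13 alternatives each, 116 of 130 log2 fold changes kept their direction and side of the threshold, 7 were weaker, 2 stronger and 5 reversed. The reversed values were NFE2L2 at 0.055, NQO1 at 0.13, HMOX1 at 0.054 and TXNRD1 at 0.14 with ribosomal protein scaling, and TXNRD1 at 4.7e-06 with library totals. Against TMM these scalings raised all genes alike. That the shift is alike is built in, while its direction and size come from these data. With library totals 2 members were higher and 4 lower, while ribosomal protein scaling gave 3 and 2. Of the 120 other redox genes tested, 60 were higher and 27 lower with library totals, against 43.9% and 15.5% of all tested genes. Under ribosomal protein scaling 72 were higher and 9 lower, against 60.5% and 5.58% of all tested genes. DESeq2, DESeq2 size factors, both other filters and glmTreat moved no count of members by more than 1.5 times. Leaving out each library made TXNRD1 weaker in 3 of 6 fits and changed the call of no other member. The deviations of same-numbered libraries correlated at 0.13, 0.018 and 0.071, and 5 of 6 libraries correlated best with their own number, a hint of pairing from the data. The labels name nothing that same-numbered libraries share, and not every correlation was over 0.1, so the fit without the block was kept. With the replicate block 1 member was higher and 7 lower, and 49 other redox genes were higher and 49 lower. The block changed no call among the members, and the ratios, compared within numbers, gave an exact permutation p = 0.25, the smallest that 3 differences allow.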

Other observations

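Some redox genes had no counts in untreated cells and a few after VPA, below the filter on low counts. ABCC3, an efflux pump gene, had 0 counts in every untreated library and 1, 3 and 3 in the VPA-treated ones. AKR1B10, an aldo-keto reductase gene, had 0 in every untreated library and 3, 4 and 1 in the treated ones. ME3, the mitochondrial malic enzyme, had 0 against 2, 6 and 4. These 3 of 148 redox genes were picked after their values were seen, and over all genes 370 had no count without VPA and at least 1 in each treated library. Such counts are too few for a fold change.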
